A study of Mus musculus with 24 samples.

Results

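The antiviral genes induced by type I interferon were followed through the course of experimental autoimmune myocarditis (EAM) in the mouse heart. The group holds 47 genes chosen by name as members of the interferon response, all 47 of which were matched by symbol among the 41388 genes of the count table. Hearts came from male BALB/cAnNCrl mice (Balb/c wild type in the labels), with 4 EAM and 4 control hearts at each of day 10, 15 and 21 (D10, D15 and D21). EAM mice received a myosin heavy chain peptide in complete Freund's adjuvant on days 0 and 7, with pertussis toxin on day 0. Control mice received PBS in adjuvant on the same days and the same toxin, so all 24 animals carried the adjuvant and the toxin, and no naive heart was analysed here. By the study's methods, the mice sequenced at each day were selected from those available, favouring hearts that met the criterion of inflammation where this could be done. Each library was made from RNA of a portion of 1 heart, and the meaning of the replicate numbers is not stated in the labels, so the p-values measure the spread between these samples.

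Type I interferons bind the receptor made of Ifnar1 and Ifnar2, whose signal is carried to the nucleus by the ISGF3 complex. This complex, which contains Stat2 and Irf9, binds the interferon-stimulated response element (ISRE) in the promoters of its target genes. The products sense viral RNA or DNA, degrade it, block translation, entry or budding, or tag proteins with Isg15. Many of the same genes also respond to interferon-gamma, the product of activated T cells and natural killer cells, which acts through the gamma-activated sequence (GAS).

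Total counts per library were between 15814863 and 24980864, so a floor of 3 counts corresponds to 0.12 to 0.19 CPM. This floor covers counting error only. CPM values here are counts scaled to a common library size with TMM factors over all 24 libraries. The 4 D21 EAM libraries carry a different library code from the other 20, so at D21 the code and EAM cannot be told apart. The 7 cardiomyocyte markers together took 7230 to 33431 CPM in the 24 hearts. Because the samples are bulk tissue, fewer cells of a type and less RNA per cell cannot be told apart.

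Promoter sequences show the element that names this response. The table of RefSeq promoters (GRCm38.p6) held 35 of the 47 members, 30 with 1 promoter and 5 with 2. ISRE letters were searched as GAAANNGAA and GAS letters as TTCNNNGAA, on both strands, from 250 bases before to 50 bases after each start, and matches of the ISRE letters may overlap each other. The 100 bases before the start are given below for the 5 members with ISRE letters and the largest increase at D15, and for Epsti1, a strongly induced member without them, with the ISRE matches in capitals and every sequence read 5′ to 3′ on the strand of the gene. The 1 GAS match of Oas1a, near the beginning of its stretch, is left in lower case.
Oas3: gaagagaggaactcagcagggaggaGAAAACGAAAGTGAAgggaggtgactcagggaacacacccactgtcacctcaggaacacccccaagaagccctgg
Phf11b: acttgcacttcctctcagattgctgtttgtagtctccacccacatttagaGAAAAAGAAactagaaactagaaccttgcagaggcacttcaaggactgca
Slfn8: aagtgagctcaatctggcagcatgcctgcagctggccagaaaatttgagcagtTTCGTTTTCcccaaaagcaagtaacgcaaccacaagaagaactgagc
Isg15: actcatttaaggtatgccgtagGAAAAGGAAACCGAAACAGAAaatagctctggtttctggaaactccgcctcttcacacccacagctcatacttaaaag
Oas1a: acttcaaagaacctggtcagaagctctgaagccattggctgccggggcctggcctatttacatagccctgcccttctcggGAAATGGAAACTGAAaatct
Epsti1: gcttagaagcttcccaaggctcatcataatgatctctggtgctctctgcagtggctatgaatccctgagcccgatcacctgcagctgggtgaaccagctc

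These stretches lie at chr5:120777660-120777759 (minus strand) for Oas3, chr14:59341331-59341430 (minus strand) for Phf11b and chr11:83020811-83020910 (minus strand) for Slfn8. Isg15 is at chr4:156200819-156200918 (minus strand), Oas1a at chr5:120907526-120907625 (minus strand) and Epsti1 at chr14:77904139-77904238 (plus strand). In Oas3, 2 overlapping matches began 75 and 69 bases before the start. In Isg15, 3 matches in an unbroken run began 78, 72 and 66 bases before it, and in Oas1a 2 matches began at 20 and 14 bases. The single match of Phf11b began at 50 bases, and that of Slfn8 at 47 bases, on the opposite strand.

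ISRE letters were present in 21 of the 35 members with a promoter (60.0%), against 2638 of 27025 genes (9.76%). With 1 further A required after the ISRE pattern, the counts were 18 members (51.4%) and 3.99% of genes. GAS letters were in 6 members (17.1%) and 9.55% of genes, 4 of the 6 together with ISRE letters. The remaining 12 members had neither pattern in this window. The median D15 log2 fold change was 1.43 (range 0.19 to 4.89) over the members with ISRE letters and 1.65 (range 0.09 to 3.62) over those without them. The ranges of the members with and without the letters overlapped over most of their length.

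Most members rose in EAM hearts at D15, whereas the levels varied widely between EAM hearts at D10 and D21. Genes were called induced or repressed by edgeR's quasi-likelihood test when the Benjamini-Hochberg false discovery rate (FDR) over all genes tested was under 0.01 and the fold change was 2 or more. All 47 members passed the filter of at least 10 reads in at least 4 samples in every comparison. At D15, 36 of 47 were induced, against a background of 18.1% of all genes tested, and 0 were repressed (background 12.9%). All 47 estimates were above 0, against 7958 of 15693 over all genes tested. With no fold limit, 43 were higher (background 33.2%), and in 43 all 4 EAM hearts lay above all 4 controls (background 34.6%). Before this, at D10, 0 members were induced and 0 repressed (background 0% for both). Later, at D21, 1 was induced (background 4.13%) and 0 repressed (background 1.16%). From D10 to D15 and D21 the median log2 fold change of the members went from 0.81 to 1.67 and 0.94, while that over all genes tested was -0.01, 0.02 and -0.01.

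**Figure D1:**
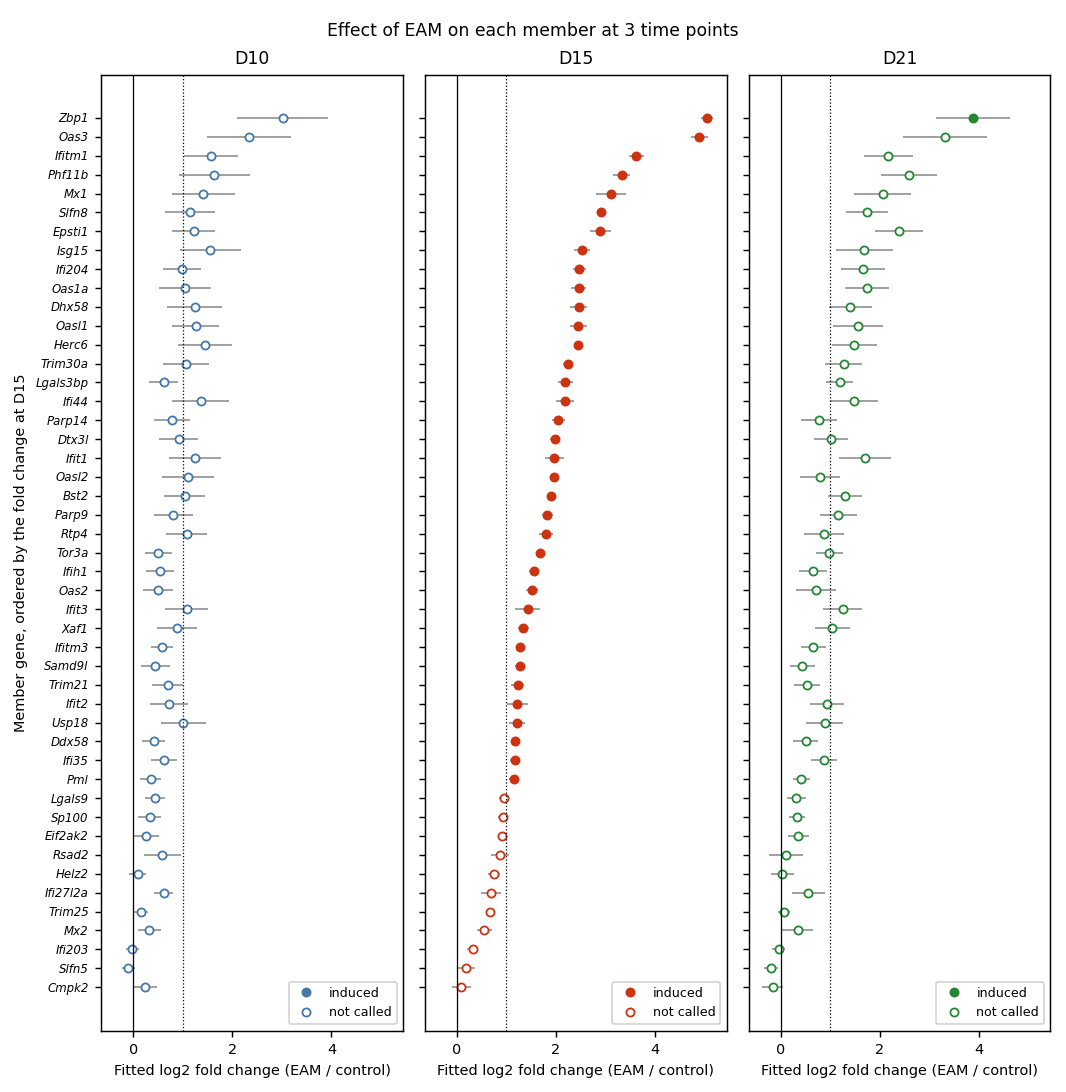
Fitted log2 fold change of each of the 47 members in EAM against control hearts at D10, D15 and D21 (points, with bars for the standard error), ordered by the value at D15. Filled points are induced at an FDR under 0.01 and at least 2-fold (dotted line), which holds for 36 members at D15 and for Zbp1 alone at D21.

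The sensors of foreign nucleic acid were all induced at D15, 4 of 4, with a median log2 fold change of 2.01. Zbp1, a sensor of Z-form nucleic acid that can start necroptosis (chr2:173206612-173218923, GRCm38), had the largest increase of all members. It was at 2.86, 3.25, 2.90 and 3.36 CPM in the D15 controls and at 106, 80.1, 108 and 104 CPM in the D15 EAM hearts. The ranges did not come near each other, and the log2 fold change was 5.04 ± 0.12 (SE, FDR = 9.7e-09). Ddx58, which encodes the RNA sensor RIG-I, rose from 27.4–31.6 to 60.3–70.5 CPM (log2 fold change 1.17). Ifih1, encoding the sensor MDA5, rose by 1.56 on the log2 scale, and Dhx58, encoding their regulator LGP2, by 2.46.

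The OAS family had the largest median change of the roles. All 5 genes of the OAS family, whose enzymes make the 2-5A that activates RNase L or are related to them, were induced at D15 (median 2.45). Oas3 was among the least expressed members in D15 controls, at 0.885, 1.77, 1.76 and 1.53 CPM, and reached 40.1, 41.8, 43.2 and 46.8 CPM in EAM hearts (log2 fold change 4.89 ± 0.17, FDR = 2.6e-08). Oasl2, which had the highest mean of the family, went from 19.9–23.7 to 70.8–92.0 CPM (log2 fold change 1.97). Of the IFIT genes, which bind viral RNA at the ribosome, and the kinase gene Eif2ak2 (PKR), 3 of 4 were induced. Ifit2 was at 37.8, 26.7, 32.5 and 34.3 CPM in D15 controls and at 84.1, 43.8, 85.6 and 84.6 CPM in EAM hearts (log2 fold change 1.22 ± 0.21, FDR = 0.000549), so the second EAM heart stood well below the other 3. Eif2ak2 rose in every EAM heart, from 31.5–38.6 to 55.6–73.4 CPM, at an FDR of 2.5e-05 but under 2-fold (0.92).

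The Mx, viperin and Cmpk2 genes changed least, with 1 of 4 induced at D15 and a median of 0.71. The Mx1 transcript was at 0.885, 1.12, 1.04 and 0.942 CPM in D15 controls and at 9.40, 4.31, 8.73 and 11.2 CPM in EAM hearts (log2 fold change 3.11 ± 0.31, FDR = 1.8e-05). Its related gene Mx2 went from 2.88–3.65 to 3.75–5.40 CPM (0.55, FDR = 0.00865), past the FDR limit but not the fold limit. Rsad2, which encodes viperin, was at 24.3, 16.8, 23.9 and 24.4 CPM in controls and at 39.2, 27.9, 51.8 and 40.5 CPM in EAM hearts (0.87 ± 0.19, FDR = 0.00213). Cmpk2, a nucleotide kinase gene that neighbours Rsad2 on chromosome 12, was at 22.4, 14.9, 17.6 and 19.5 CPM in controls and at 18.5, 14.3, 26.3 and 18.2 CPM in EAM hearts. These values overlap fully, and the estimate of 0.09 ± 0.19 was the smallest of the 47 (FDR = 0.672).

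In the Isg15 system, 3 of 4 members were induced at D15 (median 1.83). Isg15, the ubiquitin-like protein after which the group is often named, was at 8.39, 6.14, 7.61 and 6.71 CPM in D15 controls and at 43.9, 29.4, 46.8 and 42.6 CPM in EAM hearts. Every EAM heart was above every control, with a log2 fold change of 2.53 ± 0.16 (FDR = 1.2e-06). Herc6, the mouse ligase for Isg15, rose by 2.44 and Usp18, which removes Isg15 and dampens the receptor, by 1.22. Trim25, a ligase that assists RIG-I, went from 53.0–67.7 to 87.0–94.5 CPM (0.68, FDR = 5.1e-05), which is under 2-fold.

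All 3 membrane restriction factors were induced at D15 (median 1.89). Ifitm1, which blocks viral entry, was at 2.92, 4.78, 3.62 and 4.0 CPM in D15 controls and at 48.3, 46.3, 51.5 and 37.1 CPM in EAM hearts (log2 fold change 3.62 ± 0.16, FDR = 1.1e-07). Ifitm3, also an entry blocker, went from 134–136 to 300–347 CPM (1.28). Bst2, the tether that holds budding virions at the membrane, rose by 1.89.

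Of the PARP and nuclear body genes, 4 of 5 were induced at D15 (median 1.82). Parp14, an ADP-ribosyltransferase, went from 56.2–66.3 to 196–283 CPM (log2 fold change 2.05), and Parp9 and its partner Dtx3l rose by 1.82 and 1.97. Pml, the organizer of nuclear bodies, rose by 1.16, and Sp100, another component of these bodies, went from 41.1–48.2 to 70.1–92.9 CPM (0.92, FDR = 1.8e-05) without reaching 2-fold.

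The TRIM, Schlafen and HIN-200 genes divided, with 4 of 6 induced (median 1.73). Slfn8 rose by 2.91, Ifi204, a sensor of DNA, by 2.47, Trim30a by 2.24 and Trim21, a receptor for antibody-coated virus, by 1.22. Slfn5 was at 172, 135, 144 and 153 CPM in D15 controls and at 168, 108, 218 and 175 CPM in EAM hearts (0.19 ± 0.18, FDR = 0.380), and its groups overlapped. Ifi203 went from 57.9–79.2 to 70.6–88.1 CPM (0.32, FDR = 0.0212), again with overlapping groups.

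Of the secreted and galectin genes, 1 of 2 was induced. Lgals3bp, a secreted glycoprotein, was at 71.4, 59.3, 68.8 and 66.5 CPM in D15 controls and at 295, 368, 221 and 300 CPM in EAM hearts (log2 fold change 2.19 ± 0.15, FDR = 1.7e-06). Its highest D15 value was in EAM replicate 2, the heart in which most other members were lowest. Lgals9, a galectin gene, went from 44.9–56.7 to 89.4–101 CPM (0.94, FDR = 9.2e-06).

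Among the other 10 interferon-induced genes, 8 were induced at D15 (median 1.51). Phf11b was at 2.19, 2.72, 2.59 and 2.24 CPM in D15 controls and at 25.9, 17.6, 24.3 and 27.4 CPM in EAM hearts (log2 fold change 3.33 ± 0.17, FDR = 2.3e-07). Epsti1 rose by 2.90, Ifi44 by 2.18, Rtp4 by 1.8 and Xaf1 by 1.34. Helz2 went from 40.7–48.6 to 61.1–85.7 CPM (0.75, FDR = 0.000301). Ifi27l2a went from 27.1–32.3 to 29.0–61.6 CPM (0.68, FDR = 0.0120), with overlapping groups.

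**Figure D2:**
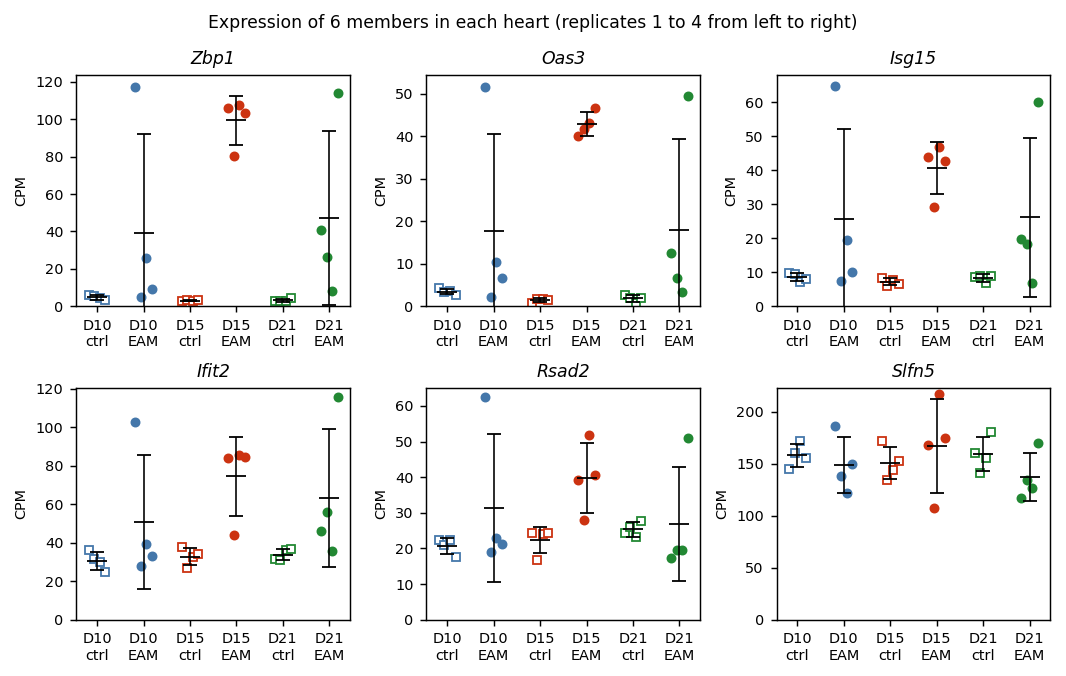
CPM of Zbp1, Oas3, Isg15, Ifit2, Rsad2 and Slfn5 in each heart, with replicates 1 to 4 from left to right and the mean ± SD of 4 hearts as bars, drawn down to 0 only. The 4 D15 EAM hearts lie close together for Zbp1 (80.1 to 108 CPM) and Oas3, while D10 EAM replicate 1 and D21 EAM replicate 4 lie far above the other EAM hearts of their day for the genes other than Slfn5.

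Compared per kilobase of exon, the levels of the members differed widely and changed order. Over the 12 control hearts, Ifitm3 was highest at 221 ± 40.1 CPM per kb (SD, n = 12), followed by Ifi27l2a at 66.5 ± 14.7 and Bst2 at 31.8 ± 2.92. The lowest were Oas3 at 0.323 ± 0.153 and Mx1 at 0.360 ± 0.144 CPM per kb, which lie within each other's spread. In the D15 EAM hearts, Ifitm3 was still first at 471 ± 33.9 CPM per kb (SD, n = 4). Bst2 at 111 ± 3.34, Lgals3bp at 104 ± 21.2 and Ifi27l2a at 99.0 ± 30.8 CPM per kb followed. The mean of Bst2 lay within 1 SD of those of Lgals3bp and Ifi27l2a, which lay within each other's spread, although both were outside the narrow spread of Bst2. Zbp1 moved from rank 43 of 47 in control hearts, at 1.06 ± 0.322 CPM per kb, to rank 8, at 28.2 ± 3.67.

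At D10, the members were raised in 1 EAM heart and to a lesser degree in others. No member passed the limits, the smallest FDR being 0.328, and 0 members were induced by the edgeR likelihood ratio test (background 0.299%), DESeq2 (0.319%) or limma-voom (0%). At an unadjusted p under 0.05, 19 members stood higher (background 9.71%). Of the 47 estimates, 45 were above 0, against 7285 of 15029 over all genes tested. In 0 members did the 4 EAM hearts all lie above the 4 controls (background 4.41%). D10 EAM replicate 1 was the highest of its group in 47 of 47 members and above all 4 controls in 47. The share of all genes highest in that heart was not computed. Replicates 2, 3 and 4 were above all 4 controls in 3, 40 and 22 members. Over all genes tested, the 4 hearts stood above all 4 controls in 37.2%, 25.8%, 33.9% and 21% of genes (background). Zbp1 was at 5.99, 5.74, 4.27 and 3.30 CPM in D10 controls and at 117, 4.87, 26.1 and 9.45 CPM in D10 EAM hearts, so 1 heart stood above every D15 EAM heart and another lay among its controls. Oas3 was at 4.34, 3.28, 3.59 and 2.78 CPM in controls and at 51.7, 2.10, 10.4 and 6.70 CPM in EAM hearts, so 3 hearts stood above every control and replicate 2 below every control. For Isg15, controls were at 9.87, 9.53, 7.13 and 8.06 CPM and EAM hearts at 64.9, 7.53, 19.6 and 10.2 CPM. The same heart set the upper end of the range for the more abundant members. Ddx58 was at 28.3–34.2 CPM in D10 controls and 29.9–66.5 CPM in EAM hearts, Ifit2 at 24.8–36.3 and 28.1–102 CPM, and Oasl2 at 21.3–25.2 and 21.4–120 CPM. Parp14 ranged from 61.3 to 74.0 CPM in controls and from 63.8 to 225 CPM in EAM hearts. Ifitm3 was at 140–200 CPM in controls and 179–384 CPM in EAM hearts. In all 5, the lowest EAM heart lay within the range of the controls. Phf11b was at 1.92–4.62 CPM in controls and 2.74–27.7 CPM in EAM hearts, and Mx1 at 0.955–2.68 and 1.42–10.8 CPM. Ifi27l2a, at 30.1–43.4 CPM in controls and 41.9–70.5 CPM in EAM hearts, and Lgals9, at 44.6–50.2 and 48.2–95.7 CPM, overlapped only slightly. Among the members that were not called at D15, D10 EAM replicate 1 was also the highest heart. Rsad2 was at 17.5–22.4 CPM in controls and 18.9–62.5 CPM in EAM hearts, Cmpk2 at 15.7–18.4 and 13.8–32.3 CPM, and Eif2ak2 at 30.7–34.0 and 25.3–66.0 CPM. Sp100 was at 43.9–48.8 and 43.4–93.5 CPM, and Trim25 at 50.9–66.6 and 57.1–84.5 CPM. The estimates of Helz2 (42.1–54.1 and 41.9–71.2 CPM), Ifi203 (65.5–72.1 and 55.7–84.5 CPM), Slfn5 (145–172 and 122–186 CPM) and Mx2 (2.70–5.76 and 4.64–6.45 CPM) were between -0.10 and 0.32. By role, the median log2 fold change at D10 was highest in the Isg15 system, at 1.23, and lowest in the Mx, viperin and Cmpk2 genes, at 0.46. Without D10 EAM replicate 1, the median log2 fold change of the members was 0.30 in place of 0.81. With all 12 control hearts as controls, 20 members were induced at D10 (background 4.07%), but control hearts of other days then enter the comparison.

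At D21, the EAM hearts again differed from one another, and the same hearts were highest and lowest for nearly all members. EAM replicate 4 was the highest in 47 of 47 members and EAM replicate 3 the lowest in 40. The shares of all genes highest or lowest in these hearts were not computed. The 4 hearts were above all D21 controls in 38, 39, 11 and 46 members (background 38.4%, 36%, 33.9% and 39.3%). In 11 members all 4 EAM hearts were above all controls (background 17.8%). An unadjusted p under 0.05 with a higher level in EAM was seen for 29 (background 25.2%). Zbp1 was at 2.74, 3.12, 2.84 and 4.56 CPM in D21 controls and at 40.7, 26.1, 8.29 and 114 CPM in EAM hearts (log2 fold change 3.88 ± 0.74, FDR = 0.00920). It was the only member past the limits, and 0 were called when any 1 control, EAM replicate 1 or EAM replicate 2 was left out (background 0% to 0.053%). Oas3, at 3.31 ± 0.85, had an FDR of 0.0215, and Epsti1, at 2.39 ± 0.48, one of 0.0104. Isg15 was at 8.74, 9.03, 6.78 and 8.86 CPM in controls and at 19.7, 18.4, 6.75 and 60.2 CPM in EAM hearts (1.69 ± 0.57, FDR = 0.0504). EAM replicate 3 lay below every control for Isg15, and the other 3 hearts above every control.

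Other members followed the same hearts at D21. Ifitm1 was at 3.76, 4.03, 2.10 and 5.12 CPM in controls and at 20.1, 9.48, 6.68 and 29.6 CPM in EAM hearts (log2 fold change 2.17 ± 0.50, FDR = 0.0150). Lgals3bp was at 74.4, 68.6, 68.3 and 87.9 CPM in controls and at 173, 145, 94.0 and 257 CPM in EAM hearts (1.19 ± 0.28, FDR = 0.0166). Mx1 was at 1.06–1.84 CPM in controls and 2.34–13.3 CPM in EAM hearts (2.06, FDR = 0.0269). In these 3 genes every EAM heart was above every control, although none passed the FDR limit. Phf11b, at 2.06–3.53 CPM in controls and 3.47–28.7 CPM in EAM hearts, and Ifit2, at 30.9–36.6 and 35.7–115 CPM, overlapped by 1 heart each. For Oasl2 (19.5–25.4 and 17.2–75.6 CPM), Parp14 (65.5–83.2 and 63.8–233 CPM), Ddx58 (28.0–34.7 and 29.9–70.1 CPM) and Ifitm3 (110–171 and 133–303 CPM), the lowest EAM heart was within or below the range of the controls. The members with the smallest D15 changes stayed small. Cmpk2 was at 18.7–23.7 CPM in controls and 14.0–25.7 CPM in EAM hearts (-0.16), Slfn5 at 141–181 and 117–170 CPM (-0.19), and Ifi203 at 63.8–79.0 and 61.1–86.8 CPM (-0.04). Rsad2 was at 24.3, 25.9, 23.2 and 27.8 CPM in controls and at 17.4, 19.5, 19.4 and 50.9 CPM in EAM hearts (0.12 ± 0.34, FDR = 0.810), so 3 hearts lay below every control and 1 far above. Eif2ak2, Sp100 and Lgals9 were at 34.9–43.7, 42.2–49.8 and 49.3–60.8 CPM in controls and at 34.6–69.0, 48.4–79.8 and 46.2–87.2 CPM in EAM hearts, with estimates between 0.32 and 0.36. Helz2 (35.5–56.5 and 33.8–65.3 CPM), Trim25 (51.9–69.1 and 58.4–73.0 CPM), Mx2 (2.88–4.07 and 2.47–7.12 CPM) and Ifi27l2a (18.2–30.3 and 18.2–58.9 CPM) also overlapped.

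The number called at D21 depended on the test and on single hearts. The edgeR likelihood ratio test called 18 members (background 8.88%), DESeq2 20 (background 8.93%) and limma-voom 0 (background 0.524%). Without EAM replicate 3, 24 members were induced (background 9.78%), and with all 12 control hearts 23 (background 10.1%). Without EAM replicate 4 the median log2 fold change of the members was 0.54. The median by role at D21 was largest for the OAS family, at 1.56, and smallest for the Mx, viperin and Cmpk2 genes, at 0.23.

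**Figure D3:**
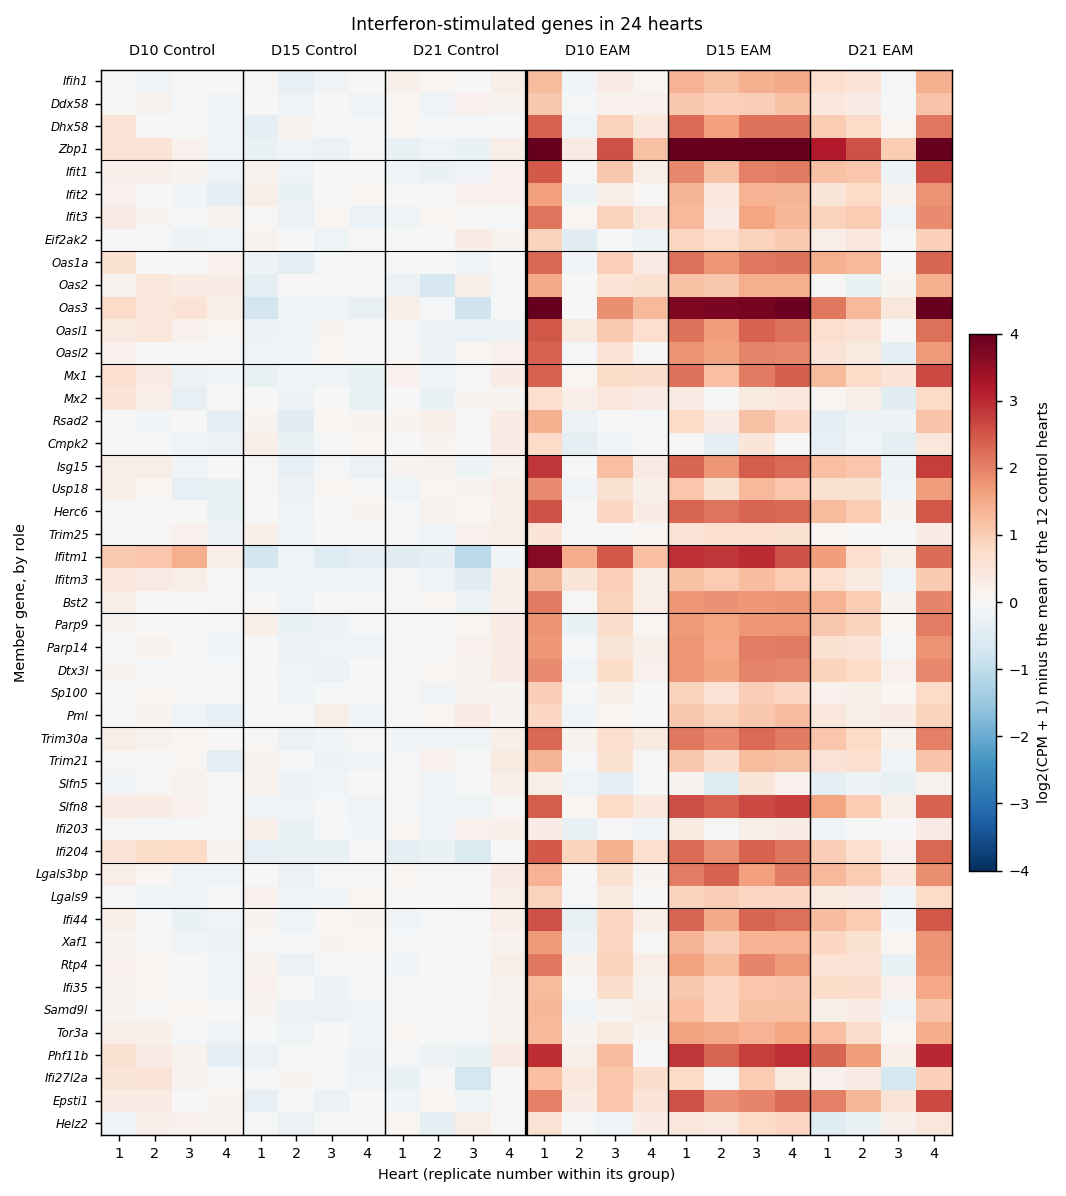
Log2(CPM + 1) of each of the 47 members in each of the 24 hearts, relative to the mean of the 12 control hearts, with the colour saturated beyond 4 and members grouped by role (horizontal lines). D10 EAM replicate 1 and D21 EAM replicate 4 are red across nearly all members, as are the 4 D15 EAM hearts, while D10 EAM replicate 2 and D21 EAM replicate 3 are close to the controls.

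The EAM effects of 2 time points were compared as contrasts in a model of all 24 samples. The fitted fold change was largest at D15 in 46 of 47 members, and at D10 in Cmpk2. The share of all genes with their largest fold change at D15 was not computed. Calls of higher genes over all genes tested were also most frequent at D15 (18.1%), with 4.13% for D21 and 0% for D10. The 46 of 47 therefore does not set the members apart from other genes. From D10 to D15, the effect rose in 1 member, Lgals3bp (background 5.38%), by 1.53 ± 0.38 on the log2 scale (FDR = 0.0040). The edgeR likelihood ratio test called 3 members higher (background 7.65%), DESeq2 4 (background 8.06%) and limma-voom 1 (background 5.06%). At D10, Lgals3bp was at 85.0, 75, 63.2 and 62.9 CPM in controls and at 186, 72.0, 107 and 75.4 CPM in EAM hearts. Without D10 EAM replicate 1, the effect rose in 26 members (background 12.3%), and without D10 EAM replicate 2 or D15 EAM replicate 2 it rose in 0 (background 2.99% and 3.37%). From D15 to D21, all 47 estimates were below 0, with a median of -0.70 against -0.0008 over all genes tested. However, 0 members passed the limits (background 0.919%), 11 were lower at an unadjusted p under 0.05 (background 17.3%), and the smallest FDR was 0.0162. From D10 to D21, 0 members rose (background 0.0735%) and 0 fell (background 0.735%), with 0 higher (background 8.52%) and 0 lower (background 9.52%) at an unadjusted p under 0.05 and a smallest FDR of 0.323. The edgeR likelihood ratio test, DESeq2 and limma-voom also called 0 members from D15 to D21 (background of lower genes 1.54%, 1.54% and 0.919%) and from D10 to D21 (1.27%, 1.13% and 0.539%).

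Few members were called between control hearts, which had also received adjuvant and toxin. From D10 to D15, 0 members fell past the limits by the quasi-likelihood test (background 0.0718%), 2 by the edgeR likelihood ratio test (background 0.627%), 2 by DESeq2 (background 0.549%) and 0 by limma-voom (background 0%), and 13 were lower at an unadjusted p under 0.05 (background 8.37%). From D15 to D21, 0 changed by any of these tests (background of lower genes 0%), with 4 higher at an unadjusted p under 0.05 (background 4.74%). From D10 to D21, 1 member fell (background 0.353%). This was Ifitm1, at 12.4, 13.2, 17.0 and 6.87 CPM in D10 controls and at 3.76, 4.03, 2.10 and 5.12 CPM in D21 controls (log2 fold change -1.73 ± 0.27, FDR = 0.0039). Its call was lost without D10 control replicate 2 or 3 or D21 control replicate 1 or 3. The D10 EAM hearts were at 81.3, 17.3, 35.0 and 14.2 CPM. From D10 to D15 Ifitm1 differed by -1.69 (FDR = 0.0155), and Ifi204 by -0.92 from D10 to D21 (FDR = 0.0042), under 2-fold. Neutrophil markers were lower in the same control hearts, with a median of -1.83 from D10 to D15 and -1.65 from D10 to D21 over 6 markers, and the 7 leucocyte markers had medians of -0.76 and -0.58. Their part in the change of Ifitm1 was not tested.

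The interferon genes themselves gave almost no reads. Of 20 type I and type III interferon genes in the table, 15 had 0 reads in all 24 libraries, and the other 5 had 18 reads between them, at most 2 in a library. None could be tested. Ifnb1 had 1 read, in D10 EAM replicate 1. Ifng, encoding interferon-gamma, had 128, 0, 12 and 2 reads in the D10 EAM hearts, 120, 68, 154 and 118 in the D15 EAM hearts and 15, 13, 1 and 59 in the D21 EAM hearts. It had at most 2 reads in any control heart. At D15, the only day on which it passed the filter, it was called higher in EAM hearts (FDR = 6.0e-06), and no fold is given because the 4 controls held 2 reads between them. The EAM heart with the most Ifng reads at D10 (replicate 1) and at D21 (replicate 4) was the one in which all 47 members were highest, and at D15 (replicate 3) the one in which 22 were. No test was made of this order.

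Genes upstream of the members were called mainly at D15. Both receptor genes, Ifnar1 and Ifnar2, were induced at D15 (1.22 and 1.36) and neither at D10 or D21. Of the ISGF3 components, Stat2 rose by 1.81 at D15 and Irf9 by 1.03, and neither was called at D10 or D21. Of the interferon regulatory factors, 4 of 5 were induced at D15 and 2 at D21, among them Irf7, the amplifier of interferon transcription, by 1.92 at D15. Of 10 adaptors and kinases of interferon induction, 7 rose at D15, with Ikbke at 5.08, and Mavs, the mitochondrial adaptor of RIG-I and MDA5, fell by 1.08. All 5 negative regulators rose at D15, among them Socs1 by 4.85, and 2 at D21.

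Genes better known as targets of interferon-gamma had larger medians than the members on each day. All 9 that were in the table were induced at D15 (median 3.52), with Cxcl9 at 6.94 and Gbp2 at 3.63, and 3 of 9 at D21 (median 2.33). At D10, 0 of the 8 tested were called (median 2.39), and all 8 had an unadjusted p under 0.05.

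Leucocyte markers rose in the same hearts, and their part in the change of the members was not tested. All 7 leucocyte markers were induced at D15 and at D21, and 0 at D10, with medians of 3.98, 2.78 and 1.46. They took 144 to 381 CPM together in control hearts, 299 to 1679 in D10 EAM hearts, 2093 to 2664 in D15 EAM hearts and 439 to 2096 in D21 EAM hearts. Of 10 monocyte and macrophage markers, 10 rose at D15 and 5 at D21. T-cell markers rose in 7 of 7 at both days, neutrophil markers in 6 of 6 at D15 and 1 of 6 at D21. Of the B-cell markers, 2 of the 4 tested rose at D15 (median 1.70) and 0 of the 2 tested at D21 (median 1.71). Of 6 markers of plasmacytoid dendritic cells, the specialized producers of type I interferon, 5 passed the read filter at D15, and 3 at D10 and at D21. Ly6d was not tested at D15. Ccr9 and Klk1 rose at D15, and Cox6a2, also a gene of heart muscle, fell. Siglech of the same list was at 0.885–2.18 CPM in D15 controls and 2.21–3.74 CPM in D15 EAM hearts (0.91, FDR = 0.0208). Pacsin1 was the 1 marker of this list called at D21, at 1.33–2.13 CPM in controls and 3.26–5.56 CPM in EAM hearts (1.39, FDR = 0.00642), and it was not called at D15 (0.15). When any 1 D21 control was left out, 0 of all genes tested were called higher at D21. None of the D21 calls of higher genes given here, markers or others, held in those fits.

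Markers of the resident cells of the heart and the mitochondrial share also moved, and their part in the change of the members was not tested. The cardiomyocyte markers had a median of -1.33 at D15, with 4 of 7 repressed, and of -0.22 at D21, with 0 repressed. All 5 endothelial markers had estimates below 0 at D15 (median -0.70), of which Kdr was repressed (-1.24), and 0 were called at D21. Of 5 fibroblast markers, the collagen genes Col1a1 and Col1a2 were induced at D15 (4.45 and 3.64) and at D21 (3.20 and 2.75), and the others at neither day. None of these 3 lists had a call at D10. Mitochondrial genes took 3.19–4.31% of reads in D15 EAM hearts against 6.1–7.14% in D15 controls. Their share was 5.04–6.23% against 6.04–7.69% at D10 and 3.91–6.77% against 5.45–5.79% at D21, with overlapping groups on both days.

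**Figure D4:**
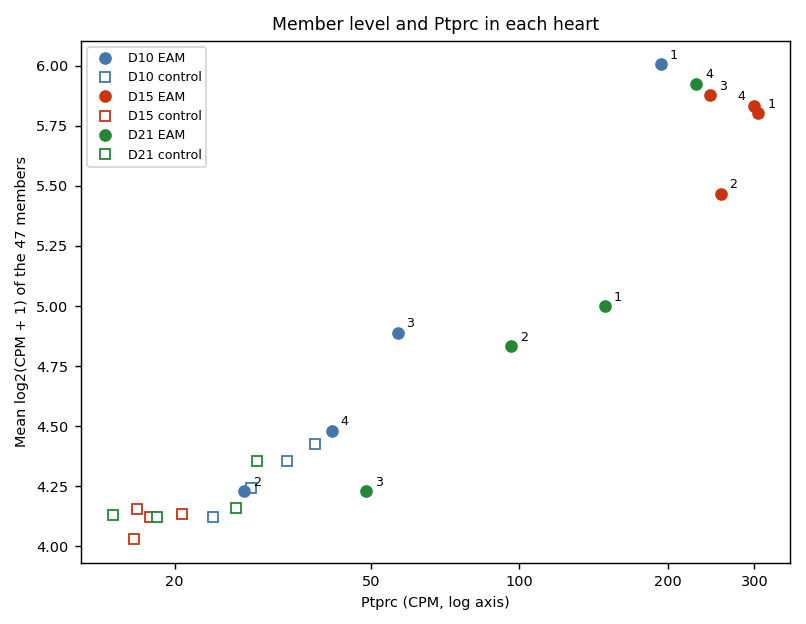
Mean log2(CPM + 1) of the 47 members against the CPM of the leucocyte marker Ptprc (log axis) in each of the 24 hearts, with EAM hearts numbered by replicate. D10 EAM replicate 1 has the highest member level, 6.01, at 194 CPM of Ptprc, below the 244 to 305 CPM of the D15 EAM hearts.

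The EAM hearts of D10 and of D21 had the same order by the mean log2(CPM + 1) of the members as by that of the leucocyte markers. From highest to lowest this was replicates 1, 3, 4 and 2 at D10 and replicates 4, 1, 2 and 3 at D21. At D15 the order was 3, 4, 1 and 2 by the members and 1, 4, 2 and 3 by the leucocyte markers. Over all days, the member level was highest in a D10 EAM heart and the leucocyte marker level in a D15 EAM heart. D10 EAM replicate 1 was above the mean of the D15 EAM hearts in 38 of 47 members and in 7 of 9 interferon-gamma-type genes, but in 0 of 7 leucocyte markers and 2 of 10 monocyte markers. Its mean log2(CPM + 1) over the members was 6.01, against 5.80, 5.47, 5.88 and 5.83 in the D15 EAM hearts, while Ptprc (CD45) was at 194 CPM against 305, 256, 244 and 300 CPM. D21 EAM replicate 4 was above the D15 mean in 34 members and in 1 leucocyte marker. Among the D15 hearts, replicate 2 was lowest in 39 of 47 members yet above the mean in 4 of 7 leucocyte markers, and replicate 3 was above the mean in 40 members and in 0 leucocyte markers. Replicates 1 and 4 were above the mean in 32 and 39 members and in 6 and 5 leucocyte markers. For these counts of members and markers, no share over all genes was computed. These are orders of single hearts, and no test was made of them.

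**Figure D5:**
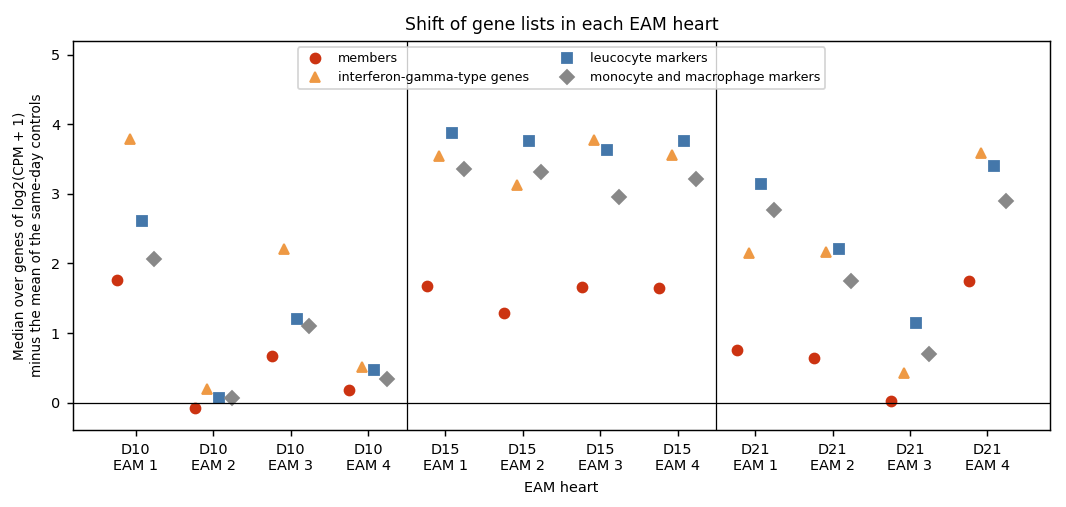
Median over the genes of each list of log2(CPM + 1) minus the mean of the same-day controls, in each of the 12 EAM hearts, for the members, interferon-gamma-type genes, leucocyte markers, and monocyte and macrophage markers. The members shift by 1.76 in D10 EAM replicate 1 and by 1.29 to 1.68 in the D15 EAM hearts, whereas leucocyte markers shift by 2.62 and by 3.63 to 3.88.

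Some members share sequence with other genes, so their counts are uncertain. Of the 75-base windows of their transcripts, 47.6% in Oas1a also occur in another gene, mainly Oas1g, as do 41.1% in Ifit3 (Ifit3b), 26.8% in Phf11b and 13.2% in Ifi204. In Herc6 (11.3%) and Rtp4 (10.5%) the shared windows lie almost wholly in Gm45193 and Gm45338, genes annotated on the same strand whose exons overlap theirs, and exons of Parp14, Sp100 and Ifi203 also overlap a gene on their own strand. Exons of Parp9 and Dtx3l overlap each other on opposite strands, and Dhx58, Slfn5, Usp18, Oasl1, Eif2ak2, Pml and Ifi35 overlap a gene on the other strand. The library kit keeps strand, and no setting of the counting for strand was found in the sources used here.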

How the data were processed

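The authors aligned 75 base pair reads to GRCm38 with HISAT2 2.0.4, removed duplicates with Picard, counted reads per Ensembl gene with featureCounts and deposited the raw counts of each sample and of all 24 samples. Both forms differed in 0 cells, and the 92 spike-in features had 0 reads. Libraries were made with a kit that keeps strand.

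From these counts, each day was fitted on its own 8 samples with edgeR 4.0.16 (R 4.3.3; TMM; quasi-likelihood test in the form that is this version's default; Benjamini-Hochberg adjustment over all genes tested). Genes needed at least 10 reads in at least 4 samples to be tested, and were called past an FDR of 0.01 and 2-fold. Effects between days were contrasts in a fit of all 24 samples, and control hearts were compared in a fit of 12. CPM used TMM factors over 24 libraries. Symbols and positions came from GENCODE M21 (GRCm38), with 40254 of 41388 identifiers matched. DESeq2 1.42.0, limma 3.58.1, other filters, limits, scalings and leaving out each library were tried. The test was checked on simulated counts. Motifs were searched with Python 3.11.15 and pandas 2.3.3, and plots made with matplotlib 3.10.9.

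The members, lists and tests were chosen with earlier results of these data known. Values by heart or by range are given for the most expressed member of each role, the 5 largest and 5 smallest D15 changes, every member not called at D15, and those called elsewhere. Isg15 was added after its values were seen.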

Additional observations from a re-analysis of the deposited data

Results flagged for a closer look

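In each group of 4 hearts, the gap between the extreme heart and its nearest neighbour was set against the range of the group. Of 186 such groups tested, 13 passed Dixon's 95% limit, which chance passes in about 1 in 20 groups. In D10 EAM replicate 1, Ddx58 was at 66.5, Ifit2 at 102, Oas3 at 51.7, Oasl2 at 120.1, Mx1 at 10.8 and Rsad2 at 62.5 CPM, each far above the other 3 hearts, and so was Ifng at 5.66 CPM. Ifng in D10 control replicate 1 was at 0.0571 CPM, a single read, with 0 in the other 3. In D15 EAM replicate 2, Zbp1 at 80.1 and Ifit2 at 43.8 CPM were far below the others. Rsad2 was low in D15 control replicate 2 at 16.8 CPM and high in D21 EAM replicate 4 at 50.9 CPM. The mean log2(CPM + 1) of the members in D21 controls was highest in replicate 4, at 4.35.

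The effect of EAM on Lgals3bp differed between D10 and D15 by 1.53 on the log2 scale, tested as a contrast of all 24 samples.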

How the results depend on the processing

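At D15, the count of induced members (36 to 43) and their median (1.65 to 1.82) kept their size under the alternatives run. The median stayed above 0 at the other days, between 0.30 (without D10 EAM replicate 1) and 1.05 (without D10 EAM replicate 2) at D10 and between 0.54 (without D21 EAM replicate 4) and 1.12 (without D21 EAM replicate 3) at D21. Scaling by total counts shifted the median of all genes at D15 to 0.17 (from 0.02) and that of the members to 1.82, with 40 induced. The share of all genes called in the same direction stands in brackets. At D10, all 12 controls gave 20 induced members (4.07%) in place of 0. At D21, against 1 (4.13%), no filter gave 3 (3.54%), the likelihood ratio test 18 (8.88%), DESeq2 20 (8.93%), limma-voom 0 (0.524%), an FDR of 0.05 20 (9.3%), all 12 controls 23 (10.1%) and a fit of 24 samples 12 (9.28%), and leaving out 1 library gave 0 to 24 (0% to 9.78%). For the effect from D10 to D15, against 1 higher (5.38%), the likelihood ratio test gave 3 (7.65%), DESeq2 4 (8.06%), an FDR of 0.05 7 (9.8%), and leaving out 1 library 0 to 26 (2.98% to 12.3%). From D15 to D21, against 0 lower (0.919%), an FDR of 0.05 gave 1 (2.65%) and leaving out 1 library 0 to 5, the 5 without D21 EAM replicate 4 (2.74%). In controls, D10 to D15, against 0 lower (0.0718%), no filter gave 1 (0.203%), the likelihood ratio test 2 (0.627%), DESeq2 2 (0.549%), an FDR of 0.05 1 (0.555%), and leaving out 1 library 0 to 1 (0% to 0.301%). In controls, D10 to D21, against 1 lower (0.353%), no fold limit gave 2 (0.986%) and leaving out 1 library 0 to 2, the 2 without D10 control replicate 4 (0.412%) or D21 control replicate 4 (0.249%). Cmpk2 at D15 (0.09) lay between -0.059, a reversal without D15 EAM replicate 3, and 0.24 when 1 library was left out. The causes were not tested. The form of the quasi-likelihood test planned as an alternative is the default of the installed version, so the newer form was run instead, a choice made after seeing the data.

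Same-numbered EAM and control hearts deviated together with correlations of 0.367, -0.077, -0.082 and 0.367 at D10, 0.035, -0.055, -0.027 and -0.096 at D15 and 0.097, 0.178, 0.302 and 0.232 at D21. Because the labels do not say what the numbers mark, they were not taken as pairs, although every correlation at D21 was above 0. With a replicate block, 2 members were induced at D21 (3.94% of all genes) and the effect rose in 6 from D10 to D15 (7.89%). Both hearts numbered 1 and both numbered 4 at D10, and every heart but EAM replicate 1 at D21, correlated best with their own number, a hint from the data only.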
